A study of Rattus norvegicus with 15 samples.

Results

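Chemokines are small secreted proteins that draw leukocytes along a gradient, and they act through G protein-coupled receptors on those cells. Atypical receptors bind the same ligands without the usual signal and scavenge, transport or present them. In injured skeletal muscle the family is known for bringing in neutrophils, then monocytes and macrophages, and for placing lymphocytes. The genes described here are the rows of the multifidus RNA table whose symbol begins with Ccl, Cxcl, Ccr, Cxcr or Ackr and a number, plus Cx3cl1, Cx3cr1, Xcl1, Xcr1 and Ccrl2. The rule used the symbols alone and found 57 of 37991 genes, of which 34 were ligands, 18 conventional receptors and 5 atypical receptors.

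RNA of the multifidus, a deep paraspinal muscle, was sequenced in 15 libraries from wild-type male Sprague Dawley rats aged 12 weeks. The methods give that age for the rats when they were divided into groups. The Control group (2 libraries) had no operation. All other groups had spinal surgery, a hemilaminectomy with ligation and cutting of the left L5 spinal nerve per the study's methods, and the Surgery group (2 libraries) had nothing further. The pMT group (4 libraries) received mitochondria isolated from human blood plasma, 25 µg in 100 µL at each of 2 paraspinal sites (50 µg per rat). The VitD group (3 libraries) received 150 µg of vitamin D at each site (300 µg per rat), and the pMT/VitD group (4 libraries) received both. The methods place the pMT injection 2 weeks after surgery and the harvest of muscle 2 weeks after that. The timing of VitD is not given in the sources used here. The human mitochondria make each pMT library a cross-species transplant, and neither a vehicle-injected group nor an unoperated group given pMT or VitD is among the 5 groups. Whether each library came from a separate rat is not spelled out in the labels, so p-values measure the spread between these libraries, which may be technical.

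Libraries held 52342134 to 73557878 counts. In a likeness measure run on the pMT and pMT/VitD libraries alone, 2 stood apart from the others of their label. In 2096 genes with a mean of at least 50 CPM (counts scaled to the size of each library by edgeR's TMM factors), the spread of log2 ratios (SD over genes) between pMT replicate 4 and pMT replicates 1 to 3 averaged 0.473, against 0.259 to pMT/VitD replicates 1 to 3. For pMT/VitD replicate 4 the averages were 0.235 to pMT replicates 1 to 3 and 0.45 to its own group's replicates 1 to 3. The labels were kept, and the counts of calls and the genes in which these libraries lay far from their group are given with and without both. The skeletal muscle markers Acta1, Ckm, Myh4, Des and Tnnt3 were abundant in every library, with a summed level from 70223 to 164494 CPM. The lowest sum was that of VitD replicate 1, beside 105040 and 117750 CPM in VitD replicates 2 and 3. A chi-squared value per gene from VitD replicate 1 to those 2 was 202 and 362, beside 26.7 between them. VitD replicate 1 was kept where both libraries that stood apart were left out.

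Promoter sequences are shown for the chemokines on which the results turn most and for a gene with matches to immune motifs. They are from RefSeq for the GRCr8 assembly, read 5′ to 3′ on the gene's strand, with 250 bases before the gene start and 50 from it. Capitals mark matches to any of 4 motifs searched on both strands, namely the NF-kappaB motif, the interferon-stimulated response element (ISRE), GAS (TTCNNNGAA) and the TATA box (TATAAA). Overlapping matches were joined.
Ccl6 (chr10:68883317-68883616, minus strand): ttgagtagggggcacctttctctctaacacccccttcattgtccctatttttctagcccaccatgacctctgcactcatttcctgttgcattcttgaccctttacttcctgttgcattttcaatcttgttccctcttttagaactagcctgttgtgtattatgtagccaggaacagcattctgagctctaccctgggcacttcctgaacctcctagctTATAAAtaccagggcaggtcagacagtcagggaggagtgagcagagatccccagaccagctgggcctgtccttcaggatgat
Cxcl13 (chr14:13917871-13918170, minus strand): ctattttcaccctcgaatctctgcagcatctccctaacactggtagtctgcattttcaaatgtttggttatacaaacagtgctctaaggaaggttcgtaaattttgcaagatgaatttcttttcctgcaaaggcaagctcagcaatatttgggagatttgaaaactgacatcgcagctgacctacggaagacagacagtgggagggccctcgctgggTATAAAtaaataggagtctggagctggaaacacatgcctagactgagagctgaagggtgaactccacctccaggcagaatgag
Cxcl10 (chr14:15988816-15989115, plus strand): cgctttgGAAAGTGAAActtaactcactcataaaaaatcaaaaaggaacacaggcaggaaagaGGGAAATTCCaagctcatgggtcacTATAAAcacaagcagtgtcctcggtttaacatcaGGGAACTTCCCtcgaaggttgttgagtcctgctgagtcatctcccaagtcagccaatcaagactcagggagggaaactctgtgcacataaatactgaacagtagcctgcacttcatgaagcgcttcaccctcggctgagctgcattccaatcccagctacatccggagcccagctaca
The Ccl6 and Cxcl13 windows each held TATA letters and none of the other 3 motifs, and the Cxcl10 window held ISRE, NF-kappaB and TATA letters. Relative to the gene start, the TATA letters began at -32 in Ccl6, -33 in Cxcl13 and -162 in Cxcl10. Of 57 genes, 43 had a promoter entry. NF-kappaB letters stood in 6 of these 43 (13.95%) and in 1.29% of 27457 promoters of the same length. TATA letters stood in 12 of 43 (27.9%) and in 14.3% of all promoters, GAS in 6 of 43 (13.95%) and 8.68%, and ISRE in 2 of 43 (4.65%) and 3.77%. Of these 43 genes, 8 had an adjusted p under 0.05 in at least 1 edgeR comparison below. Of those 8 promoters, 0 held NF-kappaB letters, 0 ISRE, 1 GAS and 4 TATA. Neighbouring chemokine genes arose by duplication, and a match describes letters only.

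Levels were compared between genes in the authors' TPM, a unit scaled for transcript length and library total, and every statement on which gene was more abundant rests on TPM. Cxcl14 had the highest mean over the 15 libraries, 58.4 TPM (36.3 to 73.9), followed by Cxcl12 at 54.3 TPM (30.9 to 76.5) and Ccl6 at 50.1 TPM (16.3 to 126). Ackr3 was at 30.7 TPM, Ccl21 at 22.7, Cxcl9 at 19.7 and Ccl24 at 17.9. The ranges of these neighbours overlapped, so their order was not separable. Cxcl14 and Cxcl12 are constitutive tissue chemokines, and Ackr3 scavenges Cxcl12. Of the 57 genes, 7 had a mean of at least 10 TPM, 16 a mean from 1 to 10 TPM and 34 a mean under 1 TPM. Ccl25, Ccl26, Ccl28, Cxcl17 and Cxcr1 had no more than 3 counts in any library, which was taken as the count floor. A further 13 genes exceeded the floor but reached at most 15 counts and were not tested, which left 39 genes for the tests.

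**Figure D1:**
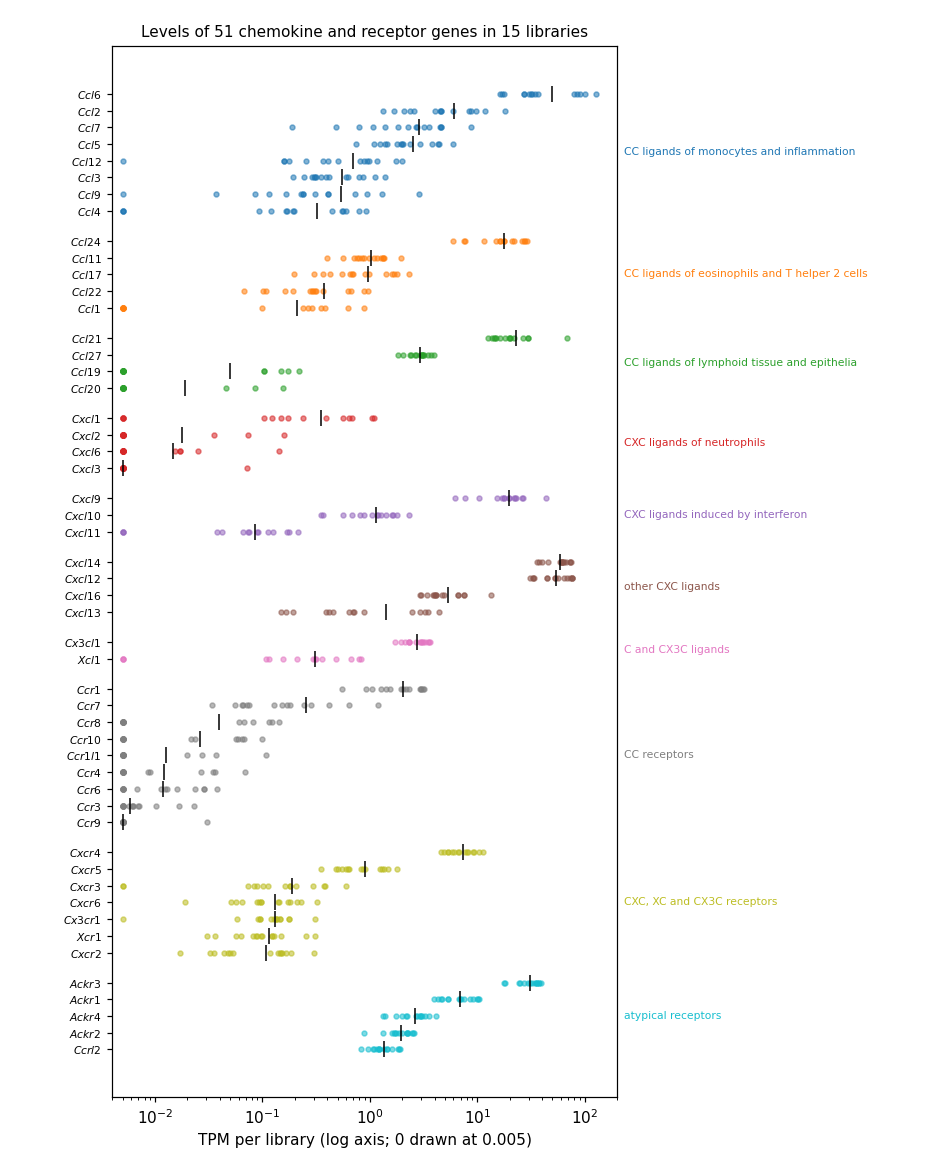
Level of 51 of the 52 genes above the count floor, in TPM on a log axis. Each point is 1 of 15 libraries, the black bar is the mean, values of 0 are drawn at 0.005 TPM, and colours mark the role groups. Cxcl14, Cxcl12 and Ccl6 had the highest means, at 58.4, 54.3 and 50.1 TPM.

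The 5 groups were first compared together, with edgeR's quasi-likelihood test over all 15 libraries and Benjamini-Hochberg adjustment over 17201 genes (threshold 0.05). Of the 39 chemokine and receptor genes, 6 differed among the groups, namely Ccl6, Cxcl13, Cxcr5, Ackr1, Cxcl16 and Ccr7. That was 15.4% beside 11.8% of all genes tested. In pairs, 3 genes were higher in Surgery than in Control (Ccl6, Cxcl13 and Cxcr5), where 1.55% of all genes were called and 1.25% were called higher. In VitD against Control 4 genes were higher (the same 3 and Cxcl16), with 8.67% of all genes called and 5.48% called higher. In pMT against Surgery 3 were lower (Ccl6, Cxcl13 and Cxcr5), with 1.94% called and 1.55% called lower. In pMT/VitD against Surgery 4 were lower (those 3 and Ackr1), with 7.44% called and 5.03% called lower. These pairs share the Control or the Surgery libraries, so they are not independent. The calls rested on few libraries. The 3 of Surgery against Control were lost without any 1 of the 4 libraries compared, and those of VitD against Control without either Control library. In pMT against Surgery 1 was left without Surgery replicate 1 and 0 without replicate 2, beside 0.152% and 0.163% of all genes. In pMT/VitD against Surgery 2 were left without Surgery replicate 2, beside 0.687% of all genes, and 8 were called without pMT/VitD replicate 4, beside 12.8% of all genes. Cxcl16 in VitD against Control was lost in 10 alternative settings and Ccr7 among the 5 groups in 16. Among the 5 groups together 12 genes were called without pMT/VitD replicate 4, beside 16.0% of all genes.

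No chemokine or receptor gene was called by edgeR in 4 further pairs, in each of which 0% of all genes were called. At an unadjusted p under 0.05 there were 0 of 39 for pMT against Control, 1 for pMT/VitD against Control, 0 for VitD against Surgery and 3 for pMT/VitD against pMT. Over all 17201 genes tested, the same counts were 528, 496, 139 and 1737 in that order. limma with sample quality weights called 2, 8, 0 and 13 of the 39 genes, beside 1.32%, 10.6%, 2.44% and 38.3% of all genes. The 2 of pMT against Control (5.13%) and the 8 of pMT/VitD against Control (20.5%) lay above the share over all genes. All of these were lower than in Control. The 13 of 39 in pMT/VitD against pMT (33.3%) lay below the share over all genes. DESeq2 called 0 in each, beside 0 to 0.541% of all genes. Without both libraries that stood apart, edgeR called 5 of 39 genes in pMT/VitD against pMT (12.8%), below the 18.3% of all genes called there. They were Cxcl12, Ccl22, Ccl7 and Cxcl13, lower, and Ccl27, higher. Ccl22 and Ccl7 were named after their values were seen. Both libraries were left out because each was more like the other group in these same data, which favours calls in this pair. These 5 genes are therefore not read as a result.

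The comparison with the most libraries set the operated groups given pMT (pMT and pMT/VitD, 8 libraries) against the operated groups without it (Surgery and VitD, 5 libraries). An exchange of libraries between pMT and pMT/VitD does not change which libraries stand on each side. Here 14 of 39 genes fell with pMT and 0 rose (35.9%), beside 23.3% of all genes called and 13.3% called lower. The median log2 fold change of the 39 genes was -0.41, beside 0.01 over all genes tested, with 29 of 39 estimates below 0. Without both libraries that stood apart, 18 genes were called, all lower and all 14 among them, beside 28.5% of all genes. The count rested on the Surgery libraries, and it was 8 without Surgery replicate 1 and 7 without replicate 2, beside 11.6% and 11.3% of all genes. limma with sample quality weights called 3 genes higher and 23 lower, beside 51.2% of all genes called. Without VitD replicate 3, edgeR called 1 higher and 17 lower, beside 25.6% of all genes called. Fewer cells of a type and less RNA per cell cannot be told apart in this bulk tissue.

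**Figure D2:**
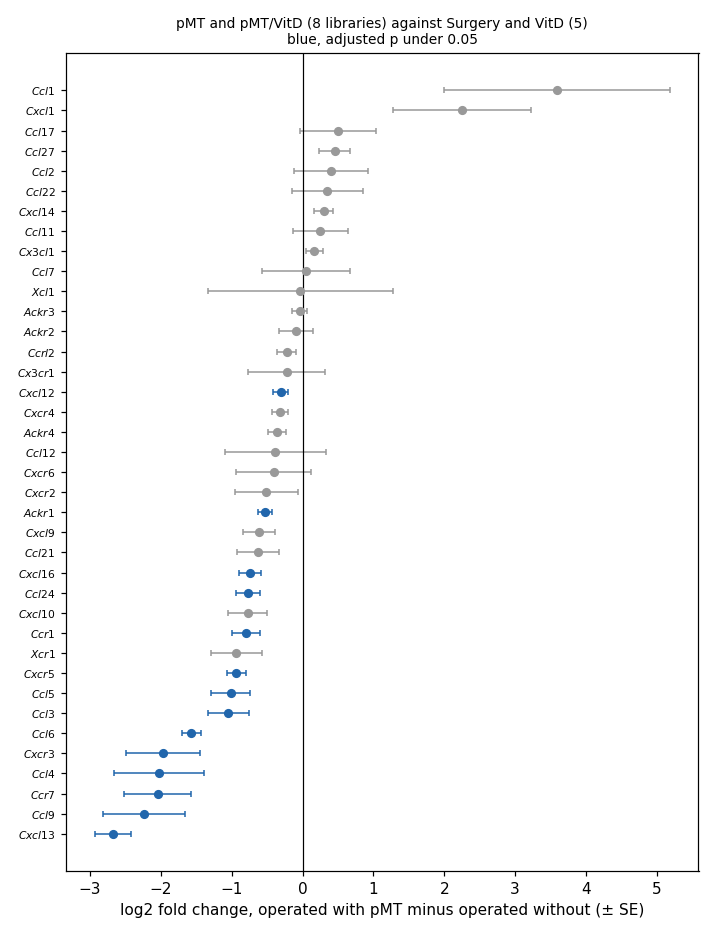
log2 fold change (± SE) of 38 of the 39 tested genes, operated libraries with pMT (8) minus operated libraries without (5). Blue marks adjusted p under 0.05, and all 14 such genes lie below 0.

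Among the 8 CC ligands of monocytes and inflammation, all tested, 5 fell with pMT (Ccl3, Ccl4, Ccl5, Ccl6 and Ccl9). Ccl6, a macrophage-attracting ligand of Ccr1 in rodents, was the most abundant of them. Ccl6 was at 7.56 and 8.83 CPM in Control, at 18.9 and 20.4 in Surgery, at 27.7, 22.8 and 18.2 in VitD, at 7.55, 8.38, 7.36 and 5.79 in pMT and at 6.03, 5.26, 8.58 and 8.02 in pMT/VitD. Every operated library with pMT lay below every operated library without it, at or below 8.58 CPM, and the Control libraries overlapped those with pMT. In log2 terms the fold change was 1.26 ± 0.24 (SE, adjusted p = 0.0235) for Surgery against Control, -1.43 ± 0.20 (SE, adjusted p = 0.00242) for pMT against Surgery and -1.50 ± 0.20 (SE, adjusted p = 0.00118) for pMT/VitD against Surgery. With against without pMT it was -1.58 ± 0.13 (SE, adjusted p = 8.29e-06), and -1.58 (adjusted p = 1.03e-05) without both libraries that stood apart.

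Ccl9, another rodent ligand of Ccr1, was far lower. Ccl9 was at 0.252 and 0.10 CPM in Control, at 1.1 and 0.614 in Surgery, at 2.36, 0.80 and 0.351 in VitD, at 0.219, 0.102, 0.193 and 0.407 in pMT and at 0.216, 0.501, 0.0645 and 0 in pMT/VitD. Its VitD and Surgery libraries spanned a wide range, and pMT replicate 4 and pMT/VitD replicate 2 overlapped the lowest VitD library. The log2 fold change with against without pMT was -2.24 ± 0.58 (SE, adjusted p = 0.0139), and the call was lost without Surgery replicate 1 (adjusted p = 0.0747) or VitD replicate 1 (adjusted p = 0.0585).

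Ccl3 and Ccl4 are inflammatory ligands released by activated macrophages and T cells. Ccl3 was at 0.126 and 0.217 CPM in Control, at 0.426 and 0.396 in Surgery, at 0.538, 0.684 and 0.299 in VitD, at 0.337, 0.128, 0.193 and 0.24 in pMT and at 0.216, 0.222, 0.215 and 0.214 in pMT/VitD. Ccl4 was at 0.126 and 0.117 CPM in Control, at 0.284 and 0.30 in Surgery, at 0.456, 0.393 and 0.299 in VitD, at 0, 0.102, 0.221 and 0.0924 in pMT and at 0, 0.0742, 0.172 and 0 in pMT/VitD. Both were low, at no more than 47 counts in a library. For Ccl4 every operated library with pMT lay below every one without, while for Ccl3 pMT replicate 1 overlapped the lowest VitD library. The fitted log2 fold change was -1.05 ± 0.29 (SE, adjusted p = 0.0182) for Ccl3 and -2.03 ± 0.64 (SE, adjusted p = 0.0333) for Ccl4. Both calls were lost without either Surgery library or without VitD replicate 2, and that of Ccl4 also without pMT replicate 2, pMT/VitD replicate 2 or VitD replicate 1.

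Ccl5 is a ligand of Ccr1 made by T cells among others. Ccl5 was at 0.663 and 0.583 CPM in Control, at 1.64 and 1.6 in Surgery, at 2.14, 1.43 and 1.11 in VitD, at 0.573, 0.768, 0.703 and 1.33 in pMT and at 1.02, 1.04, 0.581 and 0.311 in pMT/VitD. The pMT replicate 4, at 1.33 CPM, overlapped VitD, and the Surgery libraries lay above all 8 with pMT. Its log2 fold change was -1.01 ± 0.27 (SE, adjusted p = 0.0165) and -1.04 (adjusted p = 0.00272) without both libraries that stood apart. The call was lost without either Surgery library.

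Ccl2, the main monocyte attractant, did not follow the same course. Ccl2 was at 6.12 and 7.42 CPM in Control, at 2.3 and 2.03 in Surgery, at 4.35, 2.34 and 1.3 in VitD, at 4.63, 3.06, 2.18 and 1.29 in pMT and at 1.6, 1.72, 0.946 and 10.2 in pMT/VitD. The Control libraries lay above both Surgery libraries, and pMT/VitD replicate 4, at 10.2 CPM, was the highest of all. With against without pMT the log2 fold change was 0.40 ± 0.53 (SE, adjusted p = 0.619), and -0.17 (adjusted p = 0.707) without both libraries that stood apart, so the sign of the estimate rested on them. Without both, edgeR called Ccl2 among the 5 groups (adjusted p = 0.0154), beside 29.8% of all genes called. With all 15 libraries its edgeR adjusted p was 0.584. The library with the highest Ccl2 was among those left out, which narrows the spread and favours the call. In RefSeq's gene order, Ccl2, Ccl7, Ccl11, Ccl12 and Ccl1 neighbour each other on chromosome 10, and with all 15 libraries edgeR called none of them in any comparison. The second run of neighbours on that chromosome, Ccl5, Ccl9, Ccl6, Ccl3 and Ccl4, holds the 5 called CC ligands of this role.

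Of the 6 CC ligands of eosinophils and T helper 2 cells, 5 were tested and Ccl24 was called. Ccl24, an eosinophil attractant also made by macrophages, was the most abundant. Ccl24 was at 15.4 and 15.4 CPM in Control, at 22.6 and 22.2 in Surgery, at 18.7, 23.4 and 23.6 in VitD, at 15.05, 14.3, 12.9 and 10.7 in pMT and at 10.03, 7.62, 14.1 and 18.9 in pMT/VitD. The pMT/VitD replicate 4, at 18.9 CPM, overlapped the lowest VitD library, and the other 7 with pMT lay below all without. The log2 fold change with against without pMT was -0.77 ± 0.17 (SE, adjusted p = 0.00492), and -0.87 (adjusted p = 0.000378) without both libraries that stood apart. Ccl11, an eosinophil attractant as well, was at 0.366 to 1.89 CPM, with a log2 fold change of 0.25 ± 0.39 (SE, adjusted p = 0.684), and -0.08 (adjusted p = 0.856) without both libraries that stood apart.

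The 6 CC ligands of lymphoid tissue and epithelia included 2 tested genes, and neither was called. Ccl21, which guides Ccr7-bearing cells and is made by lymphatic endothelium, ranged widely within VitD. Ccl21 was at 13.7 and 13.3 CPM in Control, at 14.4 and 16.1 in Surgery, at 36.2, 16.2 and 7.55 in VitD, at 8.49, 8.1, 7.66 and 16.5 in pMT and at 14.8, 9.86, 12.3 and 13.3 in pMT/VitD. The groups overlapped, and the log2 fold change was -0.63 ± 0.29 (SE, adjusted p = 0.135), and -0.82 (adjusted p = 0.0705) without both libraries that stood apart. Ccl27, an epithelial ligand of Ccr10, was at 0.662 to 2.14 CPM with a log2 fold change of 0.45 ± 0.22 (SE, adjusted p = 0.145).

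Cxcl13, the ligand of Cxcr5 that attracts B cells and follicular helper T cells, was called in each of the 4 pairs that had calls. Cxcl13 was at 0.394 and 0.633 CPM in Control, at 2.49 and 2.13 in Surgery, at 3.12, 2.39 and 1.84 in VitD, at 0.522, 0.537, 0.606 and 0.185 in pMT and at 0.173, 0.222, 0.409 and 0.37 in pMT/VitD. All 5 operated libraries without pMT lay at 1.84 CPM or more and all 8 with pMT at or below 0.606 CPM, and Control overlapped the latter. The log2 fold change was 2.17 ± 0.46 (SE, adjusted p = 0.0339) for Surgery against Control, 2.25 ± 0.44 (SE, adjusted p = 0.010) for VitD against Control, -2.30 ± 0.37 (SE, adjusted p = 0.0067) for pMT against Surgery and -2.97 ± 0.39 (SE, adjusted p = 0.00108) for pMT/VitD against Surgery. With against without pMT it was -2.68 ± 0.26 (SE, adjusted p = 2.17e-05).

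Cxcr5, its receptor, moved the same way in the same comparisons. Cxcr5 was at 1.63 and 1.55 CPM in Control, at 2.7 and 3.72 in Surgery, at 3.01, 2.52 and 2.82 in VitD, at 1.97, 1.71, 1.65 and 1.53 in pMT and at 1.75, 1.06, 1.44 and 1.42 in pMT/VitD. All 8 libraries with pMT lay below all 5 operated libraries without. In log2 terms the fold change was 1.02 ± 0.24 (SE, adjusted p = 0.0472) for Surgery against Control, -0.90 ± 0.20 (SE, adjusted p = 0.0311) for pMT against Surgery and -0.94 ± 0.13 (SE, adjusted p = 0.00029) with against without pMT. The call of pMT against Surgery was lost without any 1 of the 8 Control, Surgery and pMT libraries. Cxcr5 overlaps Bcl9l in the annotation, and whether counting used strand is not given in the sources used here. Bcl9l was at 6.79 to 24.9 CPM, with a log2 fold change with against without pMT of 0.53 (edgeR, adjusted p = 0.170), so its estimate had the other sign. Ccl6 and Ccl3 overlap an uncharacterised locus that did not pass the filter on low counts, and Ccr7 overlaps another that is not analysed here. Ccl27 overlaps Il11ra1, among others.

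Cxcl16, a membrane-bound ligand of Cxcr6 and a scavenger receptor, fell as well. Cxcl16 was at 5.47 and 5.3 CPM in Control, at 8.3 and 7.24 in Surgery, at 14.4, 8.37 and 7.38 in VitD, at 5.7, 5.49, 4.2 and 6.88 in pMT and at 5.68, 4.69, 4.64 and 5.04 in pMT/VitD. All 8 libraries with pMT lay below all 5 operated libraries without, and VitD replicate 1 was the highest. Cxcl16 overlaps Zmynd15 in the annotation, which was at 0 to 0.334 CPM. The fitted log2 fold change was -0.74 ± 0.15 (SE, adjusted p = 0.00357) with against without pMT and 0.90 ± 0.25 (SE, adjusted p = 0.0416) for VitD against Control. Cxcl12, the ligand of Cxcr4 and Ackr3, was far more abundant and moved little. Cxcl12 was at 119 and 118 CPM in Control, at 140.2 and 146 in Surgery, at 124, 146 and 150.1 in VitD, at 122, 128, 141 and 105 in pMT and at 101, 93.6, 93.7 and 133 in pMT/VitD. The groups overlapped, and the log2 fold change was -0.31 ± 0.10 (SE, adjusted p = 0.043), a call kept in 10 of 25 alternative settings and lost without any 1 of 12 libraries, both Surgery and both Control libraries among them. Cxcl14 was at 38.5 to 89.3 CPM, with a log2 fold change of 0.30 ± 0.14 (SE, adjusted p = 0.133).

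The 3 CXC ligands induced by interferon share the receptor Cxcr3, and 2 were tested without a call. Cxcl9 was at 3.19 to 15.2 CPM with a log2 fold change of -0.61 ± 0.22 (SE, adjusted p = 0.0621), and Cxcl10 at 0.400 to 1.69 CPM with -0.77 ± 0.28 (SE, adjusted p = 0.0555). Without both libraries that stood apart, Cxcl10 was called at -0.87 (adjusted p = 0.0234). Cxcl10 overlaps Art3 in the annotation, which was at 186 to 271 CPM with a log2 fold change of 0.15 (edgeR, adjusted p = 0.326), and with strand use not given their reads cannot be told apart. The study's rule for differentially expressed genes was applied with edgeR's exact test on pMT and Surgery alone. It asks for at least a 2-fold change and p under 0.05, taken here as the unadjusted p. The methods adjust p-values but do not say which p the rule uses. By this rule 6 of 36 genes were lower in pMT: Ccl6, Ccl9, Ccr7, Cxcl10, Cxcl13 and Cxcr3. That rule took 2.97% of 16609 genes as lower and 1.07% as higher. The 1 higher gene was Cxcl1, a neutrophil attractant, with 7 and 0 counts in Surgery, 31 and 48 in Control and 7 to 29 in pMT. With the exact test's p adjusted, Cxcl10 (0.0588) and Cxcl1 (0.0582) would not pass the rule.

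Of the 4 CXC ligands of neutrophils, Cxcl1 alone was tested by the quasi-likelihood fit, at 2.25 ± 0.97 (SE, adjusted p = 0.11) with against without pMT. Cxcl2 had 0 counts in 12 libraries and at most 8 in any, so no fold is given. Xcl1, a T cell and natural killer cell chemokine, was at 0 to 15 counts, and Cx3cl1, the membrane-bound chemokine of endothelium, was at 5.16 to 8.96 CPM with a log2 fold change of 0.17 ± 0.12 (SE, adjusted p = 0.32).

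Among receptors, 2 of 3 tested CC receptors were called. Ccr1, the receptor of Ccl3, Ccl5, Ccl6 and Ccl9 on monocytes and macrophages, was the higher of these. Ccr1 was at 2.11 and 2.92 CPM in Control, at 3.5 and 3.82 in Surgery, at 3.69, 3.59 and 3.6 in VitD, at 2.06, 2.65, 2.63 and 1.02 in pMT and at 1.66, 1.82, 2.15 and 2.72 in pMT/VitD. All 8 libraries with pMT lay below all 5 operated libraries without. The log2 fold change was -0.80 ± 0.20 (SE, adjusted p = 0.00978), and the call was lost without Surgery replicate 2. Ccr7, which guides dendritic cells and naive T cells towards Ccl19 and Ccl21, was low. Ccr7 was at 0.174 and 0.0333 CPM in Control, at 0.233 and 0.518 in Surgery, at 0.924, 0.335 and 0.195 in VitD, at 0.168, 0.0512, 0.124 and 0.074 in pMT and at 0.0864, 0.148, 0.086 and 0.0778 in pMT/VitD. Again the 8 lay below the 5, the log2 fold change was -2.05 ± 0.47 (SE, adjusted p = 0.00679), and Surgery replicate 2 carried the call (adjusted p = 0.0617 without it).

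Among the CXC, XC and CX3C receptors 7 were tested, all 7 with estimates below 0, and Cxcr5 and Cxcr3 were called. Cxcr3 marks activated T cells and natural killer cells. Cxcr3 was at 0.252 and 0.117 CPM in Control, at 0.414 and 0.409 in Surgery, at 0.643, 0.233 and 0.325 in VitD, at 0.219, 0.179, 0.124 and 0.166 in pMT and at 0, 0, 0.129 and 0.117 in pMT/VitD. The 8 libraries with pMT lay below the 5 without, and the log2 fold change was -1.97 ± 0.52 (SE, adjusted p = 0.0143). The call was lost without either Surgery library. Cxcr4, the most abundant receptor of this group, was at 6.68 to 12.2 CPM with a log2 fold change of -0.32 ± 0.11 (SE, adjusted p = 0.0581).

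All 5 atypical receptors were tested, with estimates below 0, and Ackr1 was called. Ackr1 binds many inflammatory chemokines on venular endothelium and red cells. Ackr1 was at 6.23 and 4.78 CPM in Control, at 7.3 and 7.19 in Surgery, at 7.35, 6.32 and 6.68 in VitD, at 4.3, 5.16, 5.2 and 5.2 in pMT and at 4.32, 4.82, 4.39 and 5.39 in pMT/VitD. All 8 libraries with pMT lay below all 5 operated libraries without. In log2 terms the fold change was -0.53 ± 0.09 (SE, adjusted p = 0.00131) with against without pMT and -0.61 ± 0.14 (SE, adjusted p = 0.0198) for pMT/VitD against Surgery, the latter lost without either Surgery library or pMT/VitD replicate 1. Ackr3, at 32.0 to 56.3 CPM, had a log2 fold change of -0.04 ± 0.10 (SE, adjusted p = 0.799).

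**Figure D3:**
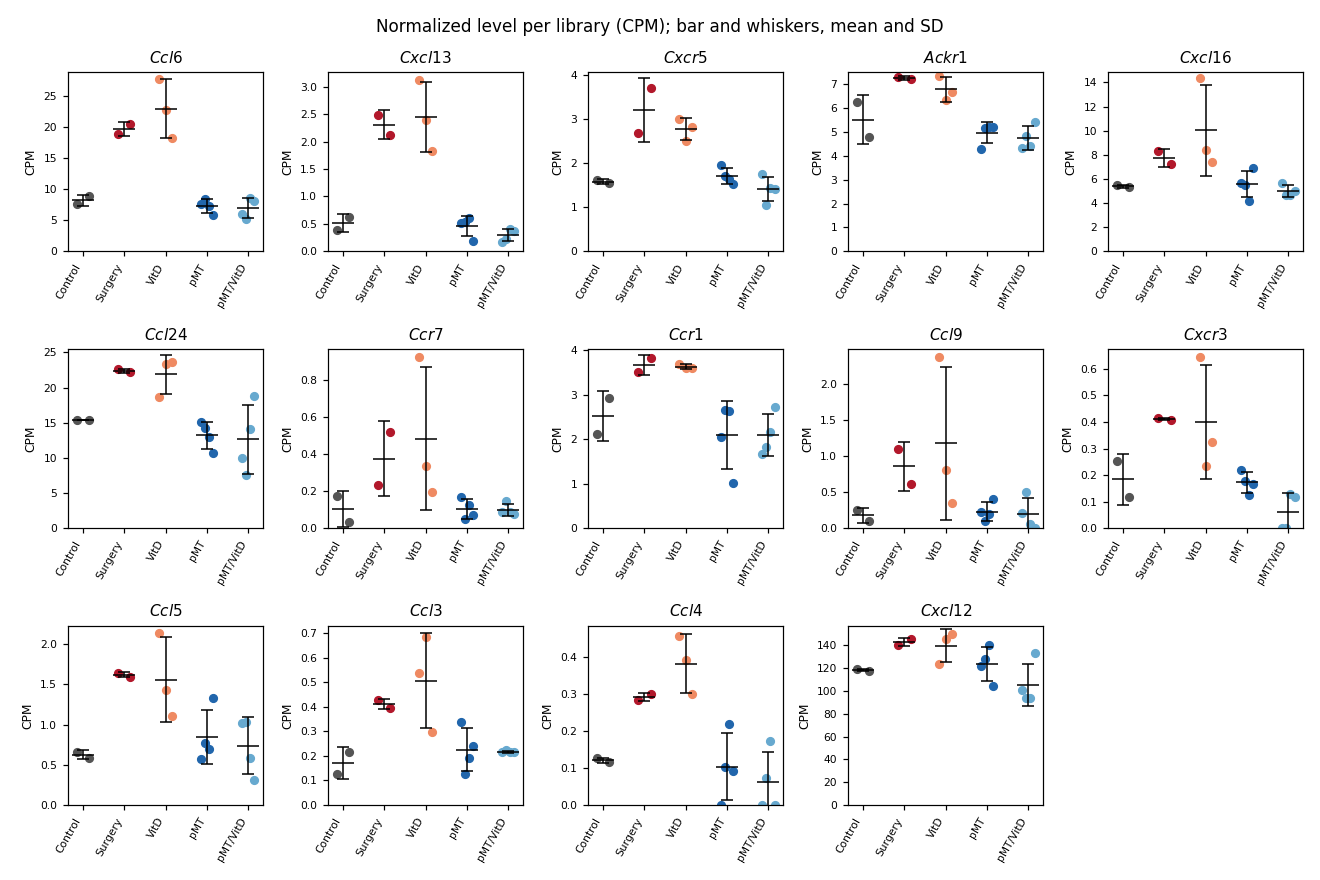
CPM of the 14 called genes in each library by group. Points are libraries, the horizontal marks are group means and the whiskers 1 SD. For Ccl6 the libraries with pMT lie at or below 8.58 CPM and the operated libraries without at or above 18.2 CPM.

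Over these genes, 9 of 39 had every operated library with pMT below every operated library without it (Ackr1, Ccl4, Ccl6, Ccr1, Ccr7, Cxcl13, Cxcl16, Cxcr3 and Cxcr5), beside 7.15% of all genes tested. None had every such library above, beside 4.24% of all genes. Whether VitD altered the effect of pMT was tested as a difference of differences by edgeR. It gave 0% of all genes called, 0 of 39 chemokine and receptor genes called and 1 at an unadjusted p under 0.05 (Ackr4, named after its values were seen). Over all 17201 genes tested, 888 had an unadjusted p under 0.05.

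**Figure D4:**
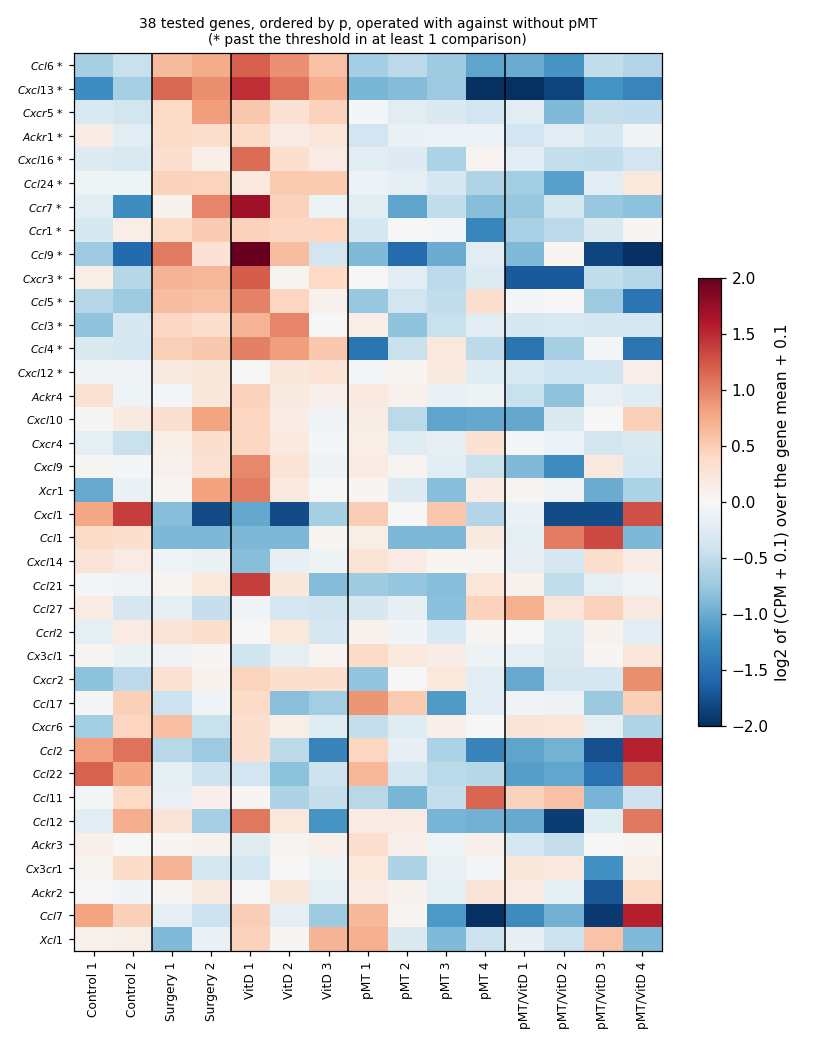
Level of 38 of the 39 tested genes in each of 15 libraries, as log2 of (CPM + 0.1) over the gene's mean + 0.1. Genes are ordered by p with against without pMT, and the 14 marked with a star passed the threshold in at least 1 comparison.

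Other genes of the pathway were counted from a list of 42 chemokine signalling genes (G protein subunits, receptor kinases and arrestins, kinases, motility factors, integrins and transcription factors), of which 41 were tested. With against without pMT 25 were lower and 2 higher, beside 13.3% of all genes called lower and 10% called higher, with a median log2 fold change of -0.36 beside 0.01 over all genes. The lowest were the leukocyte integrins Itgam at -1.08 and Itgal at -1.03 and the exchange factor Vav1 at -0.93. The 2 higher genes were Nfkbia, the NF-kappaB inhibitor, at 0.96 and Grk2, a kinase that desensitises receptors, at 0.37. Of 19 genes listed as inducers of chemokines (cytokines, their receptors and interferon factors), 13 were tested and 4 were lower, beside the same 13.3%. These 4, named after their values were seen, are receptors for cytokines: Il17ra at -0.83, Tnfrsf1a at -0.47, Il1r1 at -0.44 and Ifngr1 at -0.31. Of the 19 genes, 4 were at the count floor, and genes that were not tested could not be called.

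Markers of some cell types moved with the same comparison, beside 13.3% of all genes called lower and 10% called higher. Their part in the results was not tested. All 7 macrophage markers fell with pMT, and their summed level was 150 to 159 CPM in Control, 290 to 293 in Surgery, 267 to 362 in VitD, 107 to 178 in pMT and 96.7 to 176 in pMT/VitD. Of 6 T cell markers 3 fell, with sums of 3.76 to 3.81 CPM in Surgery, 2.76 to 6.15 in VitD, 1.48 to 2.41 in pMT and 1.58 to 2.21 in pMT/VitD. Of 5 B cell markers 4 were tested and 1 fell. Of 4 lymphatic endothelium markers 2 fell, with sums of 47.6 to 47.9 CPM in Surgery, 41.4 to 64.8 in VitD, 24.6 to 32.1 in pMT and 20.9 to 32.9 in pMT/VitD. Of 4 fibroblast markers 2 fell, with sums of 3451 to 6470.15 CPM in the operated libraries without pMT and 1739.95 to 2756 with it. Of 5 skeletal muscle markers 2 rose, with sums of 70223 to 117751 CPM without pMT and 113398 to 164494 with it. Erythroid markers rose (3 of 3), as did 3 of 5 mast cell markers, and of 4 neutrophil markers tested 1 fell and 1 rose. Of 4 blood endothelium markers 1 fell and 1 rose, of 4 Schwann cell markers 1 fell, and 0 of 4 adipocyte markers were called.

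**Figure D5:**
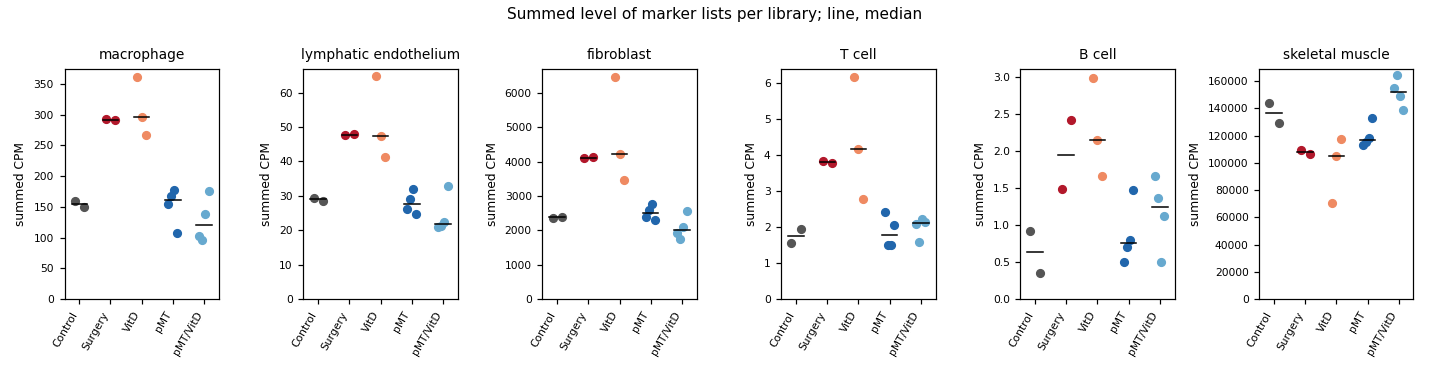
Summed CPM of marker lists in each library by group. Macrophage sums lie at 267 to 362 CPM in the operated libraries without pMT and at 96.7 to 178 CPM in those with it.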

How the data were processed

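The authors trimmed paired-end reads with Trimmomatic 0.38, aligned them to the rat genome rn6 with HISAT2 2.1.0 and SAMtools 1.9, and assembled and counted transcripts with StringTie 2.1.3b. They deposited whole-number counts per gene, TPM and FPKM, and the 15 columns of FPKM were not used here. Strand and multi-mapped reads are not described in the sources used here, so near-identical or overlapping genes are uncertain. The deposited counts were tested with edgeR 4.0.16 in R 4.3.3 (TMM factors, filterByExpr by group, robust quasi-likelihood fit of all 15 libraries, adjusted p under 0.05). CPM were scaled by TMM factors. The deposited TPM served only to compare levels between genes. A count of 3 was the floor, and the depth of 52342134 to 73557878 counts limits genes near it. The study's rule for differentially expressed genes was applied with edgeR's exact test and an unadjusted p. Alternatives were RLE factors, library size alone, other filters, DESeq2 1.42.0, limma 3.58.1 with quality weights, only the groups compared, a replicate block, removal of a gene-length trend, and libraries left out. Groups came from the labels, which name no batch. The scripts were tested on simulated data. The members, gene lists and tests were chosen with earlier results of these data known. Values in every library were given for called genes, and values or ranges for the 2 most abundant of each role, except 1 gene that is not reported here. Replicates differed by more than counting noise, and by unlike amounts. A chi-squared value per gene between replicates was 4.663 for the Surgery pair and 21.8 for the Control pair. It reached 446.1 within pMT, 362 within VitD and 212.8 within pMT/VitD. The main fit shared its estimate of spread over these groups.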

Additional observations from a re-analysis of the deposited data

Results flagged for a closer look

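Within groups of 4 libraries, the highest or lowest library was set against the gap expected of a single stray value, for the 28 named genes in pMT and pMT/VitD. Of 56 sets, 7 had a library far from the others, where chance gives about 1 in 20 for untied values. The 2 sets of Cxcl2 held 3 libraries at 0 and 1 above it, which meets the limit by construction. In pMT replicate 4, Ccl11 was at 1.886 CPM (others 0.3711 to 0.5375) and Ccl21 at 16.49 CPM (others 7.663 to 8.492). In pMT/VitD replicate 4, Ccl2 was at 10.16 CPM (others 0.9461 to 1.724) and Cxcl2 at 0.07785 CPM (others 0). In pMT replicate 1, Ackr1 was at 4.297 CPM (others 5.157 to 5.196). In pMT replicate 2, Cxcl2 was at 0.02559 CPM (others 0). In pMT/VitD replicate 2, Ccr7 was at 0.1483 CPM (others 0.07785 to 0.08644).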

How the results depend on the processing

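No call changed sign under any alternative run. Counts of called chemokine and receptor genes follow, with the share of all genes called in the same setting in parentheses. Ranges with single libraries left out carry no such share, and neither do the counts of the rule for differentially expressed genes. With against without pMT the share over all genes was 17.9% without VitD replicate 1 and 26.9% without pMT/VitD replicate 4. The ranges are therefore not read as results about the chemokine genes. Among the 5 groups together the count was 6 (11.8%), and 15 with library size alone (20.8%), 13 by DESeq2 (21.6%), 29 by limma with quality weights (66.6%), 13 without both libraries that stood apart (29.8%), and 4 to 12 when single libraries were left out. For Surgery against Control it was 3 (1.55%), and 16 by limma (28.5%), 17 with only the groups compared (32.4%), 1 with the length trend removed (3.34%), and 0 to 3 with single libraries left out. For VitD against Control it was 4 (8.67%), and 7 with library size alone (16.2%), 18 by limma (37.4%), 1 with only the groups compared (0.579%), 7 with the length trend removed (2408 of 17201 genes), 8 without both libraries (15.1%), and 0 to 7 with single libraries left out. For pMT against Control limma gave 2 (1.32%) and for pMT/VitD against Control 8 (10.6%), where edgeR gave 0. For pMT against Surgery it was 3 (1.94%), and 23 by limma (37.5%), 5 without both libraries (3.15%), and 0 to 5 with single libraries left out. For pMT/VitD against Surgery it was 4 (7.44%), and 15 with library size alone (18.9%), 7 by DESeq2 (12.9%), 19 by limma (39.4%), 9 without both libraries (20.1%), and 2 to 8 with single libraries left out. For pMT/VitD against pMT it was 0, and 13 by limma (38.3%) and 5 without both libraries (18.3%). With against without pMT it was 14 (23.3%), all lower, and 22 with library size alone, all lower (31.8%), 26 by limma, 23 lower and 3 higher (51.2%), and 7 to 18 with single libraries left out, 1 of the 18 higher. The rule for differentially expressed genes gave 7, and 3 with at least 10 counts in every library, and 4 to 9 with single libraries left out. The cause of these moves was not tested. With library size alone the median of all genes with against without pMT was -0.226, a shift of -0.241 from TMM factors, and calls over all genes were 5015 lower and 458 higher, against 2281 and 1723 with TMM factors. With the replicate number as a block the counts were 0 for Surgery against Control (0.616%), 1 for pMT against Surgery (0.453%) and 8 with against without pMT (2415 of 17201 genes). The numbers share no stated origin, and 2 of 24 pairs with the same number had deviations that correlated over 0.1, so they were not taken to pair the libraries.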
